A study of Mus musculus with 12 samples.

Results

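The 10 genes described here encode guanylate-binding proteins (Gbp2b, Gbp2, Gbp3, Gbp4, Gbp5, Gbp6 and Gbp7) and immunity-related GTPases (Irgm1, Igtp and Iigp1). They are 10 of the 24054 gene rows measured in primary mouse embryonic fibroblasts, and were chosen because Gbp2b had reads in the Blm KO libraries and none in the double KO libraries. That choice used the Gbp2b values of every library and the contrast of double KO with Blm KO, so Gbp2b and that contrast are described without a test. Polyadenylated RNA was sequenced from 4 genotypes with 3 libraries each: double KO (Blm -/- Recql -/-), Recql KO (Recql -/-), Blm KO (Blm -/-) and WT. BLM and RECQL1, the product of Recql, are DNA helicases of the RecQ family, and the study asked which transcripts change when either or both are missing. All cells were kept without any stated treatment in 3% O2 and 5% CO2 with 10% serum. The labels give neither the strain, age or sex of the embryos nor whether the replicates of a genotype came from separate embryos, so p-values measure the spread between libraries. Y-linked transcripts, given below, differed widely within each knockout genotype, so those libraries did not all hold the same cells. They were alike in the WT libraries, which does not tell whether those came from the same embryo or from separate ones. The source of the spread between the WT libraries was not tested.

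Both families are large GTPases whose transcription is known to be switched on by interferons, in part through interferon regulatory factors. They are known for gathering on the vacuoles that hold intracellular parasites and bacteria and for breaking them open, and fibroblasts make them in response to interferon-gamma. Irgm1 and Igtp (also called Irgm3) are regulatory members that keep effector members such as Iigp1 (also called Irga6) off the cell's own membranes. Gbp2b, whose older name is Gbp1, is known for alleles that differ in inducibility between inbred mouse strains.

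In the mm10 assembly with GENCODE M21 annotation, 5 of the members lie side by side on the plus strand of chromosome 3, in the order Gbp5, Gbp7, Gbp3, Gbp2b and Gbp2. Gbp2b occupies chr3:142594847-142619179 and Gbp2 chr3:142620602-142638008, which leaves 1.42 kb between them. Gbp4 (chr5:105115767-105139586) and Gbp6 (chr5:105270702-105293698) are on the minus strand of chromosome 5. Irgm1 (chr11:48861968-48871683, minus strand) and Igtp (chr11:58199556-58207591, plus strand) are on chromosome 11. The position of Iigp1 is given with its values.

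The RefSeq promoter table (GRCm38.p6, 250 bases before to 50 bases after a start site) matched 7 of the 10 members by symbol: Gbp2b, Gbp2, Gbp3, Gbp5, Gbp7, Irgm1 and Igtp. Each of the 7 genes held at least 1 match, on either strand, to a core of the interferon-stimulated response element, the sequence bound by interferon regulatory factors, searched as TTTCNNTTTC or GAAANNGAAA. The same letters were found in 3.44% of the 32851 promoters of the table and, counted by gene, in 1079 of 27025 genes. A second Gbp3 start site held no match. Shown here are Gbp2b, whose counts separated the Blm KO libraries from the others, its neighbour Gbp2, and Gbp7, Irgm1 and Igtp, which were higher in the Recql KO libraries. Capitals mark the motif matches, and each sequence reads 5′ to 3′ along the gene's own strand.
Gbp2b: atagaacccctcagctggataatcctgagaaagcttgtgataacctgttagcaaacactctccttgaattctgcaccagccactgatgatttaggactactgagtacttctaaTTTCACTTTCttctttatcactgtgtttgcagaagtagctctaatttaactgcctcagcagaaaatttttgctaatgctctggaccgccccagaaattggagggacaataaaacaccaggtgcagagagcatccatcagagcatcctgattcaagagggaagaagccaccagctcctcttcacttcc
Gbp2: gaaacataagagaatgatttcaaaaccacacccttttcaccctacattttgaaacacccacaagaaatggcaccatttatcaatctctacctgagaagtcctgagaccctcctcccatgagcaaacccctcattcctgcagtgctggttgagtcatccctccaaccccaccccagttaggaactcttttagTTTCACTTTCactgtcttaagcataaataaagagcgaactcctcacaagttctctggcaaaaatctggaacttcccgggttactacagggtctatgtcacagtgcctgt
Gbp7: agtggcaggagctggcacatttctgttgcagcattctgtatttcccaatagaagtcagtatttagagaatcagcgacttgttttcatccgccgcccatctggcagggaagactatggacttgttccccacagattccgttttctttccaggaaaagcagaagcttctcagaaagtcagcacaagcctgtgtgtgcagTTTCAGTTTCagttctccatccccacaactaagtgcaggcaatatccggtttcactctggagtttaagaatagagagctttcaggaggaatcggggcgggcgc
Irgm1: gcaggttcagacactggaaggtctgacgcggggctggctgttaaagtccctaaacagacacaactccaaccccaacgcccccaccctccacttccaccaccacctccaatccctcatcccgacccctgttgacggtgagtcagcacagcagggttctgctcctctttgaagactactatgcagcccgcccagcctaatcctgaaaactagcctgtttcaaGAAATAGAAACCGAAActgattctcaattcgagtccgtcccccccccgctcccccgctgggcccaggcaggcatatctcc
Igtp: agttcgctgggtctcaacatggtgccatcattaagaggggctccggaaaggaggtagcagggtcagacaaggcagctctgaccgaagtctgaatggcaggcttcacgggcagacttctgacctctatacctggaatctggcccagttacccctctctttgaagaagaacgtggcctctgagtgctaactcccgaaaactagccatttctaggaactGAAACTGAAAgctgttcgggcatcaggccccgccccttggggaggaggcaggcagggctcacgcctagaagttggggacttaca
The Gbp2b window is chr3:142594597-142594896 and the Gbp2 window chr3:142620413-142620712. The Gbp7 window is chr3:142530086-142530385, the Irgm1 window chr11:48871371-48871670 and the Igtp window chr11:58199306-58199605. Gbp2b and Gbp2 carried the same 10-base match, which begins 137 bases before the start site in Gbp2b and 59 bases before it in Gbp2. In Gbp7 the match begins 53 bases before the start site and in Igtp 34 bases before it. Irgm1 had a pair of overlapping matches that begin 30 and 24 bases before its start. These are matches of letters in the reference genome and say nothing of the alleles in these embryos or of binding.

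Depth was even, at 47758552 to 59296354 expected counts per library, so 3 counts corresponded to between 0.0508 and 0.0614 CPM, the count scaled to library size by the TMM method. Blm transcript was 4.13 ± 1.32 CPM in Blm KO and 20.7 ± 1.85 CPM in WT (SD, n = 3 each). Recql transcript was 25.2 ± 4.16 CPM in the libraries labelled Recql KO and 27.7 ± 1.86 CPM in WT, a log2 difference of -0.13 (adjusted p = 0.642, edgeR). In double KO against WT, Blm was lower (log2 difference -1.91, adjusted p = 0.0105, edgeR) and Recql differed by -0.07 (adjusted p = 0.928). The measured Recql level thus does not check the loss of Recql in either label, and "Recql KO" and "double KO" are used below as the labels' names. Each of 10 fibroblast markers was above 0 in every library, which at this depth is a weak check of the label fibroblast. Their summed level was 40615 to 47742 CPM in double KO, 21149 to 26027 in Recql KO, 45398 to 49614 in Blm KO and 31732 to 34078 in WT. In Recql KO against WT, 1 of the 10 was higher (Dcn) and 3 were lower (Col1a1, Col1a2 and Col3a1) by edgeR. Over all genes tested, 14.2% passed as higher and 15.6% as lower. On the first principal component, which carried 47.3% of the variance, the Recql KO libraries lay at 74.1 to 79.7 and the other 9 libraries between -54.4 and -7.02. In bulk RNA a difference in the number of expressing cells and a difference in RNA per cell cannot be told apart.

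Gbp2b was read in quantity in the Blm KO libraries and was at or near 0 in the others. Its expected counts were 0, 0 and 0 in double KO, 1, 0 and 0 in Recql KO, 563, 800 and 574 in Blm KO, and 2, 2 and 2 in WT. The 3 Blm KO libraries lay far above the other 9, which held 7 counts in all. In CPM, Gbp2b averaged 0 in double KO, 0.00618 ± 0.011 in Recql KO, 11.1 ± 2.54 in Blm KO and 0.0365 ± 0.0017 in WT (SD, n = 3 each). The level in Blm KO was 305-fold that in WT, with a 95% counting interval of 140 to 830 that covers counting error only. Against 3 counts over the double KO group, the limit that a count of 0 allows, Gbp2b was at least 609-fold lower in double KO than in Blm KO. The single count in Recql KO gave a Blm KO to Recql KO ratio of 1785 (counting interval 320 to 70502). These values chose the gene set and carry no test.

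The neighbouring Gbp2 had reads in every library, which allowed the pair to be compared within each. Gbp2 expected counts were 2532, 725 and 1008 in double KO, 2955, 4373 and 4484 in Recql KO, 846, 964 and 753 in Blm KO, and 2226, 1096 and 582 in WT. Gbp2b made up 40.0% (95% Wilson interval 37.4 to 42.5), 45.4% (43.0 to 47.7) and 43.3% (40.6 to 45.9) of the pair's counts in the 3 Blm KO libraries. In WT the shares were 0.0898%, 0.182% and 0.342%. In double KO no Gbp2b count was found, which allows shares of up to 0.118%, 0.414% and 0.298%. In Recql KO the share was 0.0338% in replicate 1, and the 0 counts of replicates 2 and 3 allow up to 0.0686% and 0.0669%. The libraries with the most Gbp2 counts, Recql KO replicates 2 and 3, thus had no Gbp2b count, and the Blm KO libraries were among the lower ones for Gbp2. Read sharing between the rows was small: 1.84% of the 50-base stretches of Gbp2b exons also occur in Gbp2 exons, and in the 3 libraries where either value was fractional the sum of the 2 rows was whole to within 0.02. Per kilobase of annotated exon, Gbp2b in Blm KO stood at 3.94 CPM/kb and Gbp2 in the same libraries at 5.84 CPM/kb.

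**Figure D1:**
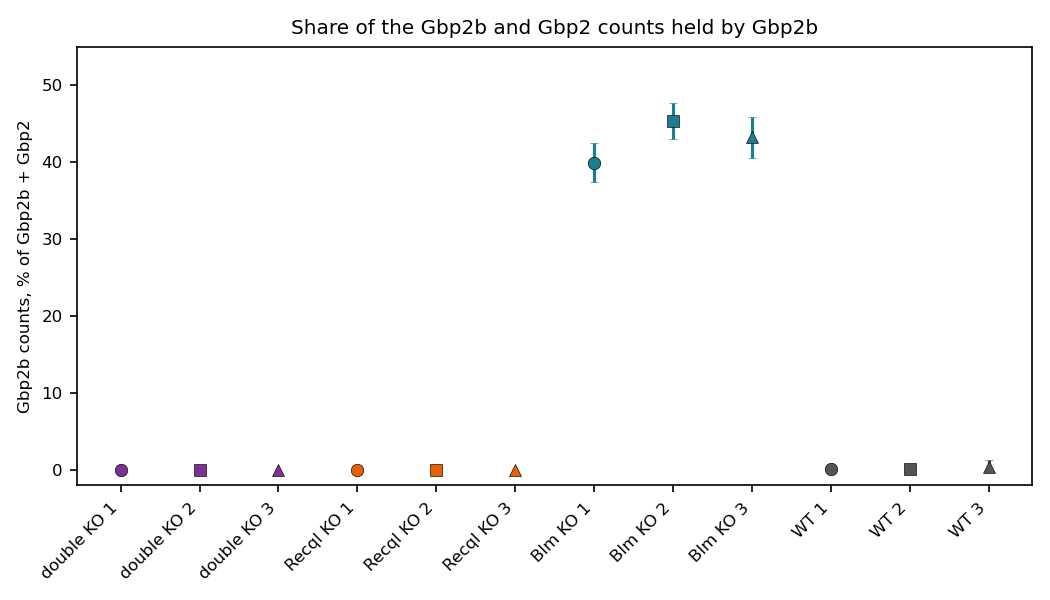
Gbp2b counts as a percentage of the Gbp2b and Gbp2 counts together (y axis) in each of the 12 libraries (x axis), with 95% Wilson intervals where a Gbp2b count was found. The 3 Blm KO libraries lie between 40.0% and 45.4%, and the other 9 at 0.342% or less.

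Beyond the Gbp2 end of the chromosome 3 cluster, 6 measured genes were examined as a list. Ccbl2, Gtf2b and Pkn2 begin 63.0 to 153 kb past Gbp2, and Lmo4, Hs2st1 and Sh3glb1 begin 1.55 to 2.05 Mb past it, while the side beyond Gbp5 was not examined. Of the 6 genes, 0 passed the test in Blm KO against WT by edgeR at an adjusted p under 0.05. At an unadjusted p under 0.05 there were 2, and the smallest adjusted p was 0.0944. The other members of the cluster did not pass either. Gbp5, Gbp7, Gbp3 and Gbp2 had log2 differences of -4.47, -0.57, -1.31 and -0.69 between Blm KO and WT. Among 12566 genes expressed at 1 CPM or more on average, the genes whose log2 CPM followed Gbp2b most closely over the 12 libraries included Dynlt1b (Pearson r = 0.964), 9030025P20Rik (0.953), Kcnn1, a potassium channel (0.919), and Capn1, a calpain protease (0.918). Dynlt1b, for example, lay at 54.5 to 65.7 CPM in double KO, 59.0 to 65.7 in Recql KO, 106 to 117 in Blm KO and 66.0 to 76.5 in WT. Dynlt1b and 9030025P20Rik are on chromosome 17, Kcnn1 on 8 and Capn1 on 19, so none of these 4 lies on the chromosome of Gbp2b. The correlations are a description over libraries that share a genotype in threes, with the 3 Blm KO libraries at the high end.

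The other 9 members followed a different order. In 8 of them, all but Gbp5, the Recql KO libraries and double KO replicate 1 lay above every WT library. Taken alone, all Recql KO libraries lay above all WT libraries in 23.9% of all genes tested. Double KO replicate 1 lay above the other double KO libraries and every WT library in 14.0%. The share of all genes that meet both was not computed. Of the regulatory GTPases, Irgm1 had 167, 41.0 and 38.3 CPM in double KO, 195, 210 and 216 CPM in Recql KO, 20.9, 39.1 and 22.0 CPM in Blm KO, and 33.1, 71.8 and 26.8 CPM in WT. Every Recql KO library was above every other library. Igtp had 23.8, 4.62 and 3.14 CPM in double KO, 27.0, 31.3 and 38.0 CPM in Recql KO, 5.22, 3.48 and 4.43 CPM in Blm KO, and 5.03, 8.35 and 3.53 CPM in WT. Its Recql KO libraries were again above the other 9, and double KO replicate 1 was next. The Igtp row shares 11.8% of its 50-base stretches with Irgm2, whose annotation overlaps it, and had a fractional count in 12 of 12 libraries, so the split between those rows is uncertain. Iigp1, the effector, lies at chr18:60376027-60392634 on the plus strand. Iigp1 had 34.9, 1.63 and 1.94 CPM in double KO, 34.5, 39.2 and 62.4 CPM in Recql KO, 2.75, 0.879 and 1.41 CPM in Blm KO, and 5.23, 5.50 and 2.46 CPM in WT. Double KO replicate 1 lay inside the Recql KO range for this gene, while the other double KO libraries lay inside the Blm KO range.

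Among the guanylate-binding protein genes, Gbp2 and Gbp7 had the highest Recql KO means in CPM, which is not divided by length. Gbp2 had 47.8, 12.7 and 18.4 CPM in double KO, 54.8, 75.3 and 91.8 CPM in Recql KO, 14.3, 16.9 and 12.8 CPM in Blm KO, and 41.1, 19.0 and 11.0 CPM in WT. Gbp7 had 49.1, 11.6 and 7.09 CPM in double KO, 52.0, 59.1 and 62.4 CPM in Recql KO, 11.1, 7.80 and 9.51 CPM in Blm KO, and 18.8, 16.6 and 6.81 CPM in WT. For both genes the Recql KO libraries were above all others, and double KO replicate 1 was next. Gbp3 had 43.6, 2.56 and 2.48 CPM in double KO, 28.6, 43.3 and 57.1 CPM in Recql KO, 3.85, 3.20 and 2.95 CPM in Blm KO, and 10.9, 11.1 and 2.73 CPM in WT. Gbp6 had 17.7, 1.56 and 1.35 CPM in double KO, 26.6, 32.3 and 46.3 CPM in Recql KO, 1.69, 0.879 and 0.920 CPM in Blm KO, and 12.8, 3.29 and 0.948 CPM in WT. Double KO replicate 1 lay inside the Recql KO range for Gbp3 and below it for Gbp6. The Gbp6 row shares 49.9% of its 50-base stretches with other family rows, mostly Gbp10, and is uncertain to that extent.

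Gbp4 and Gbp5 were the scarce members. Gbp5, known in macrophages for promoting inflammasome assembly, had 0.434, 0.140 and 0.128 CPM in double KO, 2.22, 2.50 and 6.51 CPM in Recql KO, 0.0678, 0.0703 and 0.119 CPM in Blm KO, and 5.36, 0.398 and 0.114 CPM in WT. WT replicate 1 was inside the Recql KO range, so those groups overlapped. Gbp4 had expected counts of 13, 5 and 1 in double KO, 24, 66 and 33 in Recql KO, 1, 0 and 0 in Blm KO, and 9, 11 and 1 in WT. These are a few reads per library, with the Recql KO libraries above the rest. Per kilobase of exon, the Recql KO means ran in the order Irgm1 (35.6 ± 1.85 CPM/kb), Gbp2 (29.4 ± 7.38), Igtp (15.9 ± 2.75), Gbp3 (13.2 ± 4.37), Gbp7 (10.3 ± 0.945), Iigp1 (7.79 ± 2.57), Gbp6 (5.89 ± 1.71), Gbp5 (0.564 ± 0.362) and Gbp4 (0.10 ± 0.047), each SD with n = 3. Irgm1 and Gbp2, and each pair of neighbours from Igtp to Gbp6, lay within their summed SDs of each other. In WT the means per kilobase were 9.42 ± 6.20 for Gbp2 and 7.56 ± 4.19 for Irgm1, at 2.50 to 2.79 for Igtp, Gbp3 and Gbp7, and below 1 for Gbp4, Gbp5, Gbp6 and Iigp1.

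**Figure D2:**
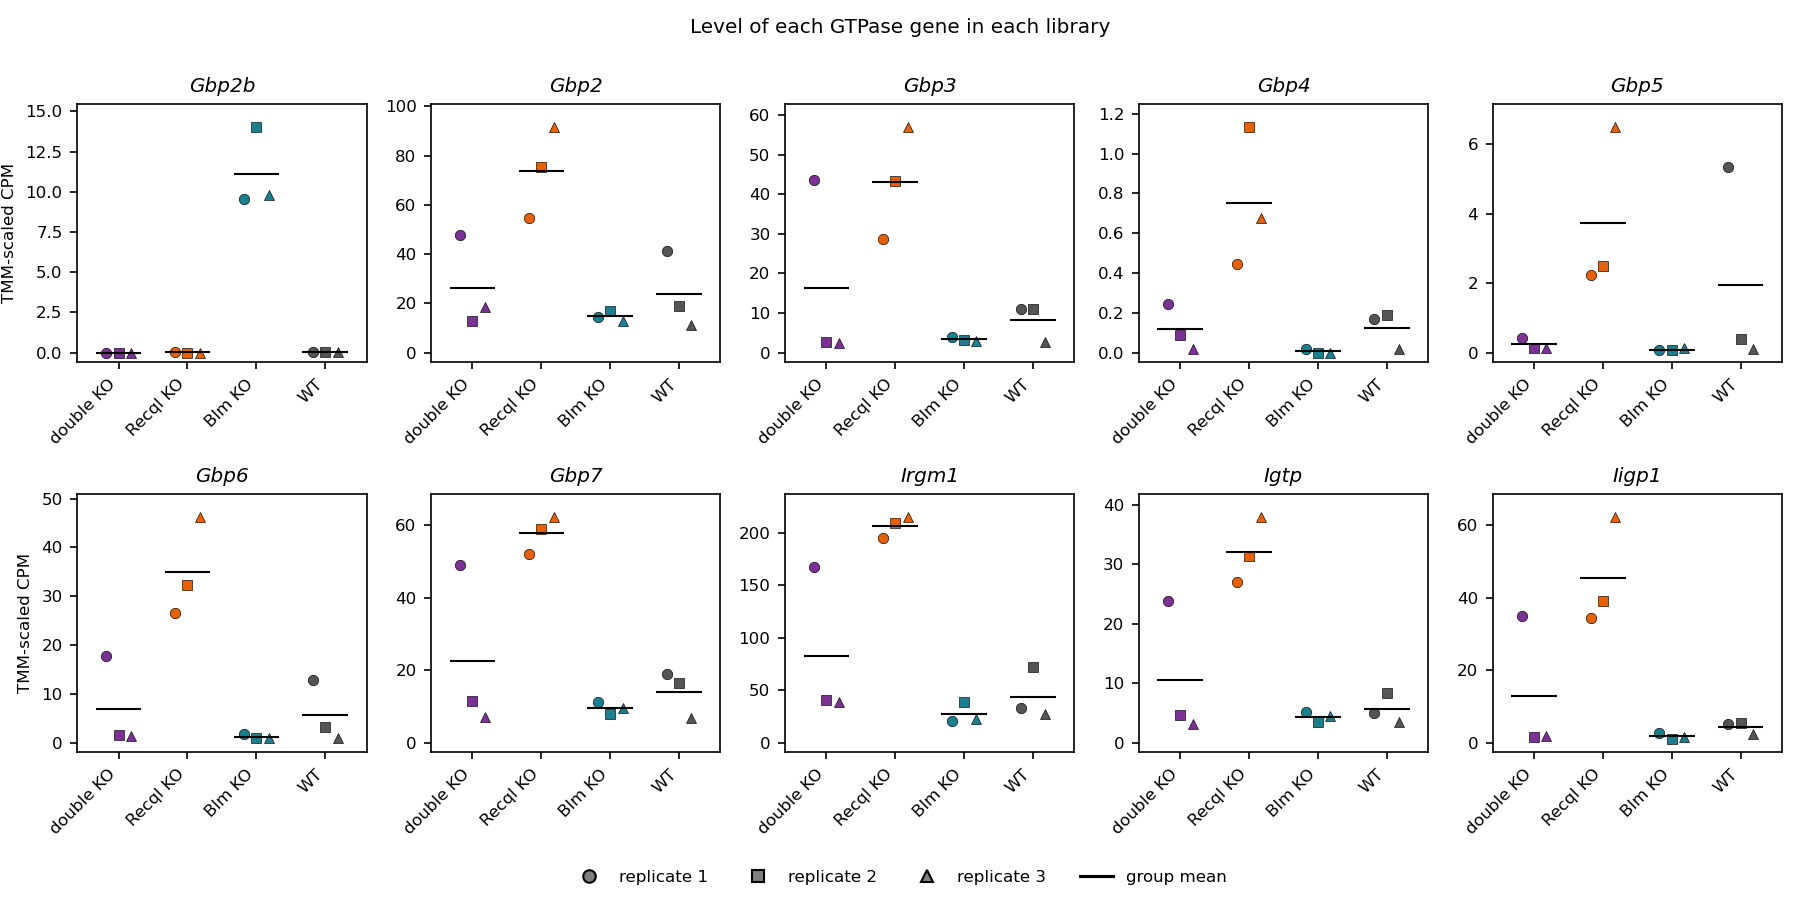
TMM-scaled CPM (y axis, linear, its own scale for each gene) of the 10 members in each library, grouped by genotype (x axis), with symbols for the replicates and a line at the group mean. Gbp2b is high in the 3 Blm KO libraries only, and the other genes are high in Recql KO and, except for Gbp4 and Gbp5, in double KO replicate 1.

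Against WT, the Recql KO libraries had higher levels of both regulatory members, the effector and 3 guanylate-binding proteins. By edgeR's quasi-likelihood test with Benjamini-Hochberg adjustment over 14876 genes, 6 of 9 tested members were higher at an adjusted p under 0.05 and 0 were lower. Over all genes tested, 29.9% passed in either direction and 14.2% passed as higher. Irgm1 rose to 207 ± 10.8 CPM in Recql KO, against 43.9 ± 24.3 CPM in WT, a log2 fold change of 2.24 ± 0.58 (SE, adjusted p = 0.016). Igtp averaged 32.1 ± 5.56 CPM in Recql KO and 5.63 ± 2.47 CPM in WT (2.51 ± 0.65, adjusted p = 0.0165). Iigp1 averaged 45.4 ± 15 CPM in Recql KO and 4.40 ± 1.68 CPM in WT (3.36 ± 1.03, adjusted p = 0.0326), the largest fold of the 9. Gbp2, Gbp4 and Gbp7 rose by log2 fold changes of 1.64, 2.56 and 2.04, with adjusted p values of 0.038, 0.031 and 0.0308. Gbp4 passed the low-count filter only with the Recql KO libraries, where it was high. Its calls here and in the other comparisons with Recql KO carry that selection and are not separate support. Gbp3 (2.38, adjusted p = 0.0888), Gbp6 (2.62, adjusted p = 0.0791) and Gbp5 (0.93, adjusted p = 0.512) did not pass. The median log2 fold change of the 9 was 2.38, beside -0.01 over all genes tested. In 8 of the 9, all but Gbp5, every Recql KO library was above every WT library, a separation found in 23.9% of all genes tested. WT replicate 3 was the lowest WT library in 9 of 9 tested members, and leaving it out reduced the calls to 0, with adjusted p of 0.0599 for Irgm1 and 0.0624 for Igtp and log2 fold changes of 1.98 and 2.27. Leaving out Recql KO replicate 1, 2 or 3 left 3, 2 and 2 calls, leaving out WT replicate 1 or 2 left 3 each, and DESeq2 called 8, with no adjusted p for Gbp5.

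Recql KO exceeded Blm KO in every tested member. By the same test 9 of 9 were higher, where 40.2% of all genes passed in either direction and 19.3% passed as higher. Gbp4 is among the 9 and carries the filter selection given above, so its call is not separate support. Gbp4 had the largest log2 fold change, 6.57 ± 1.15 (SE, adjusted p = 0.00166), a fitted value that depends on the prior count, since Blm KO held 1 count in all. From the 123 counts in Recql KO and that 1 count the ratio was 133, with a 95% counting interval of 23.5 to 5314. Gbp5 followed at 5.41 ± 1.32 (adjusted p = 0.00888), Gbp6 at 4.91 ± 1.17 (adjusted p = 0.008) and Iigp1 at 4.75 ± 1.11 (adjusted p = 0.00734). The smallest was that of Gbp2, which averaged 73.9 ± 18.6 CPM in Recql KO and 14.7 ± 2.08 CPM in Blm KO (log2 fold change 2.33 ± 0.54, adjusted p = 0.00684). The median of the 9 was 3.69, beside -0.02 over all genes. Leaving out a library left 8 or 9 calls, Gbp3 being the gene lost.

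The double KO libraries, which carry both labelled knockouts, did not form a single level. Replicate 1 was above the other double KO libraries in 9 of the 10 members, the exception being Gbp2b at 0 in each, and above every WT library in 8. Its level relative to the mean of replicates 2 and 3 was 3.07-fold for Gbp2, 3.23-fold for Gbp5, 4.22-fold for Irgm1, 4.62-fold for Gbp4, 5.25-fold for Gbp7, 6.13-fold for Igtp, 12.2-fold for Gbp6, 17.3-fold for Gbp3 and 19.6-fold for Iigp1. Over all 14876 genes tested, 14.0% were above the other double KO libraries and above every WT library in replicate 1. Replicate 1 was below every Recql KO library in 7 members, a relation found in 36.0% of all genes tested. In a mean of the 9 members' scaled log2 CPM, double KO scored 0.87, -0.66 and -0.80, Recql KO 1.08, 1.32 and 1.49, Blm KO -0.75, -0.92 and -0.92, and WT 0.21, -0.03 and -0.91. Double KO replicate 1 thus lay between Recql KO and WT in that score, and double KO replicates 2 and 3 lay beside WT replicate 3 and the Blm KO libraries. Its total, 53777808 expected counts, was within the range of the others.

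**Figure D3:**
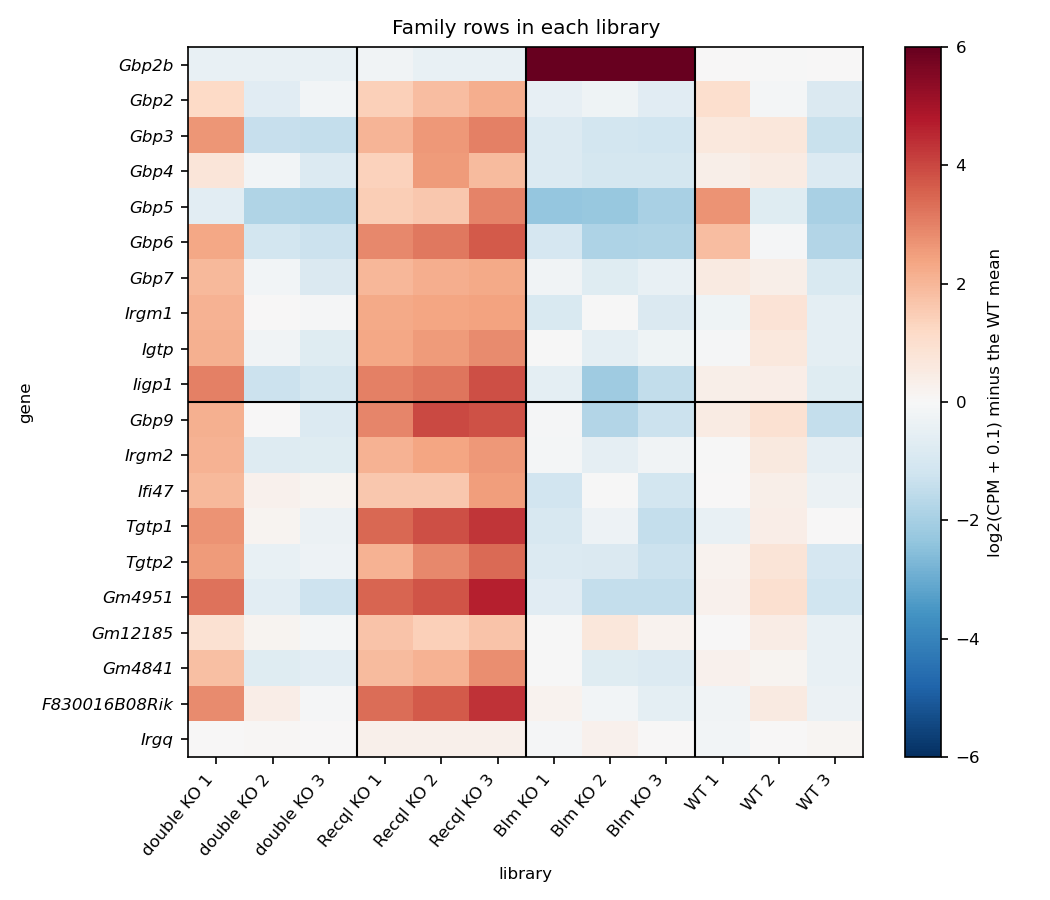
Log2(CPM + 0.1) minus the WT mean (colour, from -6 to 6, with Gbp2b in Blm KO beyond the scale) for the 10 members above the line and 10 other family rows that reached 1 CPM in a library below it, in each of the 12 libraries (x axis). The Recql KO libraries and double KO replicate 1 are red in most rows, and Gbp2b is dark red in the Blm KO libraries.

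Against WT, 0 of 9 members passed in double KO by edgeR and 0 by DESeq2, where 0.121% of all genes passed, and 1 had an unadjusted p under 0.05. The log2 differences ran from -3.06 for Gbp5 (adjusted p = 0.384) to 1.54 for Iigp1 (adjusted p = 0.619), and 7 of the 9 were positive. Without replicate 1 none of the 9 was positive: the log2 differences were -0.15 for Irgm1, -0.54 for Igtp, -0.59 for Gbp7, -0.61 for Gbp2, -1.21 for Gbp4, -1.31 for Iigp1, -1.71 for Gbp3, -1.97 for Gbp6 and -3.85 for Gbp5, with 0 calls. Leaving out replicate 1 thus turned the sign in 7 members. Replicate 1 was the highest double KO library in each of the 9, so its removal lowers these differences by construction. For Gbp2 and Gbp6 it also turned without WT replicate 3, to -0.19 and -0.23, and for Gbp6 without WT replicate 2, to -0.0059. For Gbp3, Gbp7, Irgm1, Igtp and Iigp1 no other single library turned it.

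Against Recql KO, double KO had lower Gbp4 and Gbp5 by edgeR. DESeq2 instead gave lower Gbp4 (adjusted p = 0.022) and Gbp2 (adjusted p = 0.041), and no adjusted p for Gbp5. Gbp5 averaged 0.234 ± 0.173 CPM in double KO and 3.74 ± 2.40 CPM in Recql KO (log2 fold change -3.99 ± 1.19, adjusted p = 0.033). Gbp4 averaged 0.117 ± 0.116 CPM in double KO and 0.752 ± 0.352 CPM in Recql KO (-2.67 ± 0.79, adjusted p = 0.031), with the filter selection given above. The call for 2 of 9 members stands beside 24.7% of all genes in either direction and 11.6% as lower. All 9 log2 differences were negative, with a median of -1.61 beside 0.02 over all genes, and 7 had an unadjusted p under 0.05. Gbp3 was farthest from the threshold, at -1.41 (adjusted p = 0.3), and double KO replicate 1 lay inside the Recql KO range. Without double KO replicate 1, 9 of 9 members were called lower, for example Igtp at -3.05 (adjusted p = 0.000998) and Iigp1 at -4.67 (adjusted p = 0.000936). Over all genes, 3073 were called in either direction in that fit, beside 3681 with every library. Replicate 1 was the highest double KO library in each of the 9 members. Leaving it out thus lowers the double KO level by construction, and these calls are not separate support. Without double KO replicate 2 or 3, or Recql KO replicate 2 or 3, 0 were called, and without Recql KO replicate 1 there was 1.

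In Blm KO 0 of 9 members differed from WT by edgeR and 0 by DESeq2, where 0.753% of all genes passed, and 2 had an unadjusted p under 0.05. All 9 log2 differences were negative, with a median of -1.31 beside 0.00 over all genes. They ran from -4.47 ± 1.30 for Gbp5 (adjusted p = 0.129) to -0.37 ± 0.63 for Igtp (adjusted p = 0.785). For Gbp5 the WT mean rested on replicate 1: Blm KO averaged 0.0858 ± 0.029 CPM and WT 1.96 ± 2.95 CPM. The Blm KO libraries had the smallest SD in CPM in several members, where their means were also the lowest. Gbp2 was at 14.7 ± 2.08 CPM and Gbp3 at 3.33 ± 0.464 CPM in Blm KO, beside 23.7 ± 15.6 and 8.25 ± 4.78 CPM in WT. Relative to the mean this did not hold in every member: Irgm1 was at 27.3 ± 10.2 CPM in Blm KO and 207 ± 10.8 CPM in Recql KO.

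**Figure D4:**
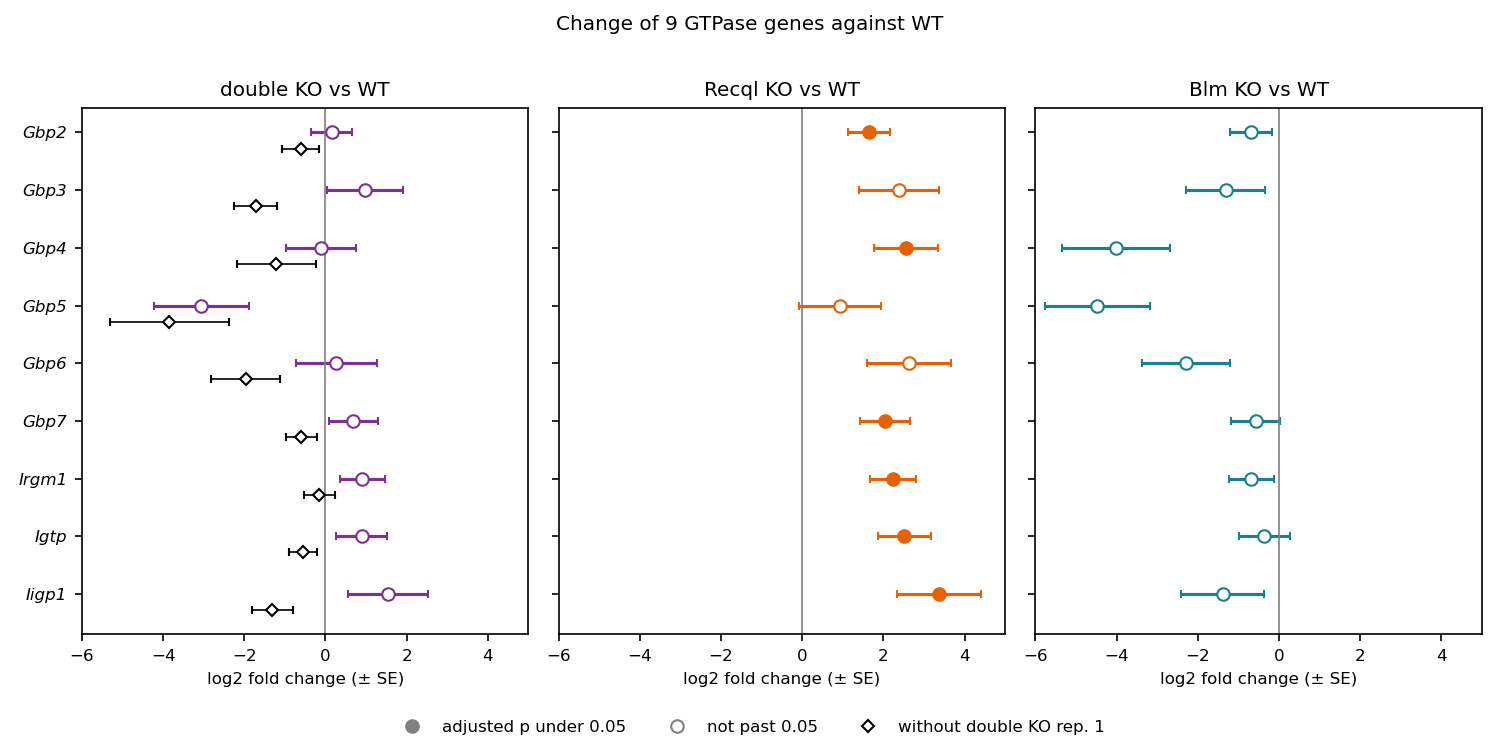
Log2 fold change (x axis, with SE) of the 9 members other than Gbp2b (y axis) in double KO, Recql KO and Blm KO, each against WT; filled points passed an adjusted p of 0.05, and diamonds show double KO without replicate 1. Recql KO is positive in each gene with 6 filled points, and the diamonds lie below 0 in each gene.

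The contrast that chose the genes, double KO against Blm KO, is described without a test. The ratio of means was 1.79 for Gbp2, 2.38 for Gbp7, 2.40 for Igtp, 3.01 for Irgm1, 4.86 for Gbp3, 5.91 for Gbp6 and 7.64 for Iigp1. With replicate 1 set aside, the mean of double KO replicates 2 and 3 was 1.06 times the Blm KO mean for Gbp2, 0.986 times for Gbp7, 0.887 times for Igtp, 1.45 times for Irgm1, 0.758 times for Gbp3, 1.25 times for Gbp6 and 1.06 times for Iigp1. These 7 ratios ran from 0.758 to 1.45. The scarce Gbp5 was at 2.73 times the Blm KO mean, and at 1.56 times without replicate 1. Gbp4 had 19 counts in double KO, 6 of them in replicates 2 and 3, and 1 count in Blm KO. The Gbp4 ratio of double KO to Blm KO was 20.1 (95% counting interval 3.20 to 837), and 9.38 (1.14 to 431) without replicate 1.

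Other rows of the families, 16 of 19 listed names in the table with 13 tested, moved in the same direction as the members in Recql KO. Against WT, 11 of the 13 were higher and 0 lower, where 14.2% of all genes passed as higher. Tgtp1 and F830016B08Rik, also immunity-related GTPase rows, had 9.40 ± 2.85 and 8.04 ± 2.95 CPM in Recql KO and 0.549 ± 0.178 and 0.485 ± 0.210 CPM in WT. Their log2 fold changes were 4.09 (adjusted p = 0.00466) and 4.04 (adjusted p = 0.00423), and both kept the call with each library left out. Gm4951 (4.20, adjusted p = 0.0324), Gbp9 (3.42, adjusted p = 0.0138), Tgtp2 (2.79, adjusted p = 0.0269), Gm4841 (2.50, adjusted p = 0.0238), Irgm2 (2.29, adjusted p = 0.0283) and Ifi47 (1.98, adjusted p = 0.019) were also higher. Gm12185 rose to 1.36 CPM in Recql KO, against 0.384 CPM in WT, and Irgq rose 1.24-fold. Gbp10 was at 0.130, 0.224 and 0.369 CPM in Recql KO and at 0 in each WT library. Like Gbp4, Gbp10 passed the low-count filter only through libraries where it was high, so its call is not separate support. With each of the 12 libraries left out in turn, the call also held in all 12 fits for Gbp9 and Gm12185. It held in 9 for Ifi47, in 8 for Tgtp2, Gm4841 and Irgq, in 7 for Irgm2, in 6 for Gm4951 and in 5 for Gbp10. These losses came without a WT or Recql KO library or, for Gbp10, also without double KO replicate 3. Adjusting the fit for Y-linked transcripts, which were high in every WT library, removed the calls for Gbp10, Irgm2, Tgtp2, Gm4951, Gm4841 and Irgq. The calls for Gbp9, Ifi47, Tgtp1, Gm12185 and F830016B08Rik remained after that adjustment. In double KO against Recql KO, 4 of the 13 were lower (Gbp9, Tgtp1, Gm12185 and F830016B08Rik), where 11.6% of all genes passed as lower, and 0 passed in double KO or Blm KO against WT, with 1 and 0 at an unadjusted p under 0.05. Tgtp1 and Tgtp2 are near-identical copies and their split is uncertain.

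Genes upstream of the family were tested as lists, whose counts in Recql KO against WT stand beside 14.2% of all genes passing as higher and 15.6% as lower. Of 10 interferon ligand rows none had enough reads to be tested. Ifng was at 0 in 12 libraries, and Ifnb1 was at 0.0371, 0.155 and 0.143 CPM in Recql KO and at 0 in the other 9 libraries. The summed ligands reached 0.0556 to 0.184 CPM in Recql KO, at most 0.0183 CPM in double KO, 0 in Blm KO and at most 0.019 CPM in WT. All of double KO replicate 1's ligand rows were at 0. Of 7 receptor and kinase genes, 2 were higher and 2 lower in Recql KO than in WT. The interferon-gamma receptor genes Ifngr1 and Ifngr2 were 1.36-fold and 1.67-fold higher (adjusted p = 0.00632 and 0.00134), and Tyk2 and Ifnar1, of the type I receptor complex, were 0.680 and 0.820 times the WT level (adjusted p = 0.0142 and 0.0484). Of 9 tested transcription factors 3 were higher and 1 lower. Irf7 averaged 82.3 ± 16.8 CPM in Recql KO and 7.06 ± 5.30 CPM in WT (adjusted p = 0.0289), a factor that interferon itself induces. Nlrc5, the transactivator of MHC class I genes, averaged 18.7 ± 2.29 CPM in Recql KO and 2.12 ± 0.772 CPM in WT (adjusted p = 0.00809). Stat2 averaged 74.1 ± 8.94 CPM in Recql KO and 23.5 ± 10.0 CPM in WT (adjusted p = 0.0419). Stat3 was lower (0.816 times, adjusted p = 0.011). In double KO replicate 1, Irf7 was 44.6 CPM, against 2.37 and 1.99 CPM in replicates 2 and 3. Irf7 was at 63.2 to 94.5 CPM in Recql KO. Of the receptor, kinase and transcription factor genes 0 passed by edgeR in double KO or in Blm KO against WT, with 2 genes at an unadjusted p under 0.05 in each.

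Of 8 inhibitors of interferon signalling 0 were higher and 2 lower in Recql KO than in WT, namely Pias1 (0.803 times, adjusted p = 0.0368) and Ptpn1 (0.818 times, adjusted p = 0.0449). Usp18, a feedback inhibitor that interferon induces, averaged 55.1 ± 11.6 CPM in Recql KO and 4.68 ± 4.97 CPM in WT and did not pass (adjusted p = 0.0549). Of 14 tested loading and partner genes, which include the autophagy conjugation system that places these GTPases on vacuoles, 7 were higher and 0 lower. Atg12, which is conjugated to ATG5, was 1.49-fold higher (adjusted p = 0.00225), Rabggtb 1.33-fold (adjusted p = 0.00791), Atg16l1 1.25-fold (adjusted p = 0.0121) and Gabarapl1 1.46-fold (adjusted p = 0.0162). Of 7 inflammasome genes 1 was higher, a share near that of all genes, namely the pore-forming Gsdmd at 1.54-fold (adjusted p = 0.0327). Of the 6 genes beyond the Gbp2 end of the chromosome 3 cluster, Ccbl2, annotated as Kyat3 and the next after Gbp2, was lower at 0.439 times the WT level (adjusted p = 0.00119), and the distant Hs2st1 was 1.32-fold higher (adjusted p = 0.0345). With each of the 12 libraries left out in turn, the calls in Recql KO against WT held in all 12 fits for Ifngr1, Ifngr2, Nlrc5, Stat3, Atg12, Rabggtb, Atg16l1 and Ccbl2. They held in 10 fits for Tyk2 and Gabarapl1, in 8 for Hs2st1, in 7 for Irf7 and Gsdmd and in 6 for Pias1, each lost without one or more of the WT and Recql KO libraries or, for Pias1, also Blm KO replicate 3. The calls for Stat2 held in 4 fits and those for Ifnar1 and Ptpn1 in 3 each, and the last pair also failed with RLE scaling. Adjusting the fit for Y-linked transcripts removed the calls for Irf7, Stat2, Ifnar1, Ptpn1 and Gsdmd. Those for Ifngr1, Ifngr2, Tyk2, Nlrc5, Stat3, Pias1, Atg12, Rabggtb, Atg16l1, Gabarapl1, Ccbl2 and Hs2st1 remained.

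Markers of other cell types were summed in each library. The summed level of 11 macrophage markers was 8.73 to 18.4 CPM in double KO, 6.56 to 10.6 in Recql KO, 5.38 to 13.8 in Blm KO and 7.94 to 19.2 in WT. The highest double KO value belonged to replicate 1, and the highest of all to WT replicate 2. Tyrobp and C1qa were at 0 in Recql KO replicates 1 and 2 and in Blm KO replicate 2, and the other 9 macrophage markers were above 0 in every library. In Recql KO against WT 1 of the 11 was higher and 2 were lower. Cd14, a coreceptor for lipopolysaccharide, averaged 2.52 ± 0.603 CPM in Recql KO and 1.39 ± 0.103 CPM in WT (adjusted p = 0.0116, edgeR), and it was also higher in Recql KO than in Blm KO (adjusted p = 0.000394) and lower in double KO than in Recql KO (adjusted p = 0.00457). In double KO replicate 1 Cd14 was at 1.24 CPM, beside 1.19 CPM in replicate 2 and a lower value in replicate 3. Cd68 averaged 1.89 ± 0.0986 CPM in Recql KO and 3.20 ± 0.518 CPM in WT (adjusted p = 0.023), and Lyz2, the macrophage lysozyme, 0.576 ± 0.290 CPM in Recql KO and 4.51 ± 3.35 CPM in WT (adjusted p = 0.0341). The summed level of 8 T and NK cell markers was at most 0.226 CPM in any library, with Ncr1 at 0 in 12 libraries. The 8 endothelial markers summed to 12.8 to 17.5 CPM in double KO, 4.82 to 6.74 in Recql KO, 6.25 to 13.6 in Blm KO and 15.5 to 23.5 in WT. Cldn5 was at 0 in 12 libraries, and Tie1 in 9. The 6 epithelial markers summed to 16.0 to 37.6 CPM in double KO, 9.56 to 14.7 in Recql KO, 15.1 to 20.9 in Blm KO and 23.3 to 46.3 in WT. In Recql KO against WT, 0 of 6 tested endothelial markers were higher and 4 lower, and 0 of 6 epithelial markers were higher and 2 lower. The part of such cells in the members' levels was not tested. Summed over 4 rows, Y-linked transcripts were at 229 to 283 CPM in every WT library and in 1 library of each other genotype. Those libraries, with double KO replicate 2, Recql KO replicate 1 and Blm KO replicate 1, are called high. The rest lay at 0.676 to 6.25 CPM, except Recql KO replicate 2 at 28.7 CPM. Y-linked transcripts were thus intermediate in Recql KO replicate 2, which was not counted as high, and the reason was not tested. With their level as a covariate, Recql KO against WT kept 2 member calls, Irgm1 (adjusted p = 0.0393) and Igtp (adjusted p = 0.0449), and in the libraries high in Y-linked transcripts alone it kept Igtp and Iigp1.

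Outside the families, the genes whose pattern most resembled the 9-member score over the 12 libraries were Dtx3l (r = 0.990), Slfn8 (0.988), Parp14 (0.985), Ddx58, which encodes the RNA sensor RIG-I (0.980), and Ccdc15 (0.974). Parp14 and the ubiquitin ligase gene Dtx3l are known interferon-responsive genes. Parp14 had 61.0, 10.8 and 4.66 CPM in double KO, 82.6, 91.6 and 103 CPM in Recql KO, 7.20, 6.22 and 6.47 CPM in Blm KO, and 19.6, 22.9 and 8.0 CPM in WT. Double KO replicate 1 lay below the Recql KO libraries and above the rest. These r values are a description over 12 libraries in which the Recql KO libraries and double KO replicate 1 stood above the other 8.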

How the data were processed

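Primary fibroblasts of 4 genotypes were measured with 3 libraries each. Per the labels' protocols, RNA was polyadenylated and libraries were made with a stranded kit; the strand setting of the counting is not given in the sources used here. The authors' deposited table holds RSEM expected counts per gene, and the submitters' processing notes name Bowtie2 2.1.0, RSEM 1.2.15 and mm10. Expected counts are estimates that divide reads shared by similar rows, so near-identical genes are uncertain. Counts were rounded; genes kept by edgeR's filterByExpr (14876 of 24054) were TMM-scaled and tested with a robust quasi-likelihood fit (edgeR 4.0.16, R 4.3.3) over the 12 libraries and 4 genotypes, with Benjamini-Hochberg adjustment and a call at an adjusted p under 0.05. DESeq2 1.42.0 was an alternative. SE is the absolute log2 fold change over the square root of F. The procedure was tested on simulated data. CPM per kilobase used merged exons of GENCODE M21. The members and gene lists were chosen with earlier results of these data known. Named genes were the members, family rows called in Recql KO against WT, up to 4 called genes per other list by smallest adjusted p, and the 5 nearest patterns by Pearson r; Usp18 and Ifnb1 were added after their values were seen. Some genes on these lists are not reported here.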

Additional observations from a re-analysis of the deposited data

How the results depend on the processing

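Calls for the 9 members rest on few libraries. In Recql KO against WT the 6 calls became 3 with no low-count filter, 2 with the Y-linked level as covariate and 2 in the Y-high subset (libraries with high Y-linked levels), and 0 to 8 with a library left out. In double KO against Recql KO the 2 calls became 1 with no filter, 1 with a filter of CPM above 1, 1 in the Y-high subset, 5 with the replicate number as a block, and 0 to 9 with a library left out. In Recql KO against Blm KO the 9 calls became 1 in the Y-high subset, where 1 library of each knockout genotype remained and is assumed to vary like WT. Replicate numbers share only a number: correlations of same-numbered libraries ran from -0.168 to 0.227. The block changed the count to 7 in Recql KO against WT and left 0 in Blm KO and double KO against WT.

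The direction of every member held in each setting for Recql KO against WT and Blm KO and for double KO against Recql KO. In Blm KO against WT, Gbp2 became 0.12 when rows that share reads were summed, and Igtp ran from -0.61 to 0.034 with a library left out. In double KO against WT, leaving out a library gave Gbp2 -0.61 to 0.81, Gbp3 -1.71 to 1.48, Gbp4 -1.21 to 0.38, Gbp6 -1.97 to 1.69, Gbp7 -0.59 to 1.11, Irgm1 -0.15 to 1.46, Igtp -0.54 to 1.33 and Iigp1 -1.31 to 2.07. In the Y-high subset these were Gbp2 -0.91, Gbp3 -1.69, Gbp6 -1.87, Gbp7 -0.29, Irgm1 -0.11, Igtp -0.30 and Iigp1 -1.44. With the Y-linked covariate Gbp2 was -0.36 and Gbp6 -0.33. The cause was not tested. Over all genes, leaving out a library gave 31 to 572 calls in Blm KO against WT (112 in full), 8 to 28 in double KO (18), 2692 to 4964 in Recql KO (4444) and 2157 to 3875 in double KO against Recql KO (3681). RLE scaling moved the median by at most 0.02. At 0.0508 to 0.0614 CPM for 3 counts, depth limits Gbp4, Gbp5 and the interferon ligands.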
